A study of Homo sapiens with 7 samples.

Results

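Tumour suppressor genes and genes of the DNA damage response were examined for CTCF occupancy at 8 loci, namely BRCA1, PALB2, BRCA2, ATM, ATR, WRAP53, CDKN1A and RB1. They were chosen by name from the 20136 protein coding genes of the annotation. A CTCF peak was assigned to a gene when it overlapped the gene, taken over all its transcripts, or lay within 20 kb of it. This rule gave 14 of the 33094 peaks in the list of control cells and 14 of the 32917 peaks in the list of pyridostatin-treated cells. CTCF occupancy was mapped in K562, an established human erythroleukaemia line, by chromatin immunoprecipitation and sequencing (ChIP-seq) to compare CTCF positions with and without stabilisation of G-quadruplexes (G4s), which are folds of G-rich DNA. The control group was untreated and comprised 2 CTCF samples and 1 sample precipitated with nonspecific IgG. The PDS group was kept in 10 μM pyridostatin (PDS), a small molecule that binds G4s, for 24 h and comprised 2 CTCF and 2 IgG samples. Peaks had been called once per condition on both CTCF samples together, so each value below is single for its condition and has no SD. Sequencing depths are not known from the lists, and no difference between the lists was tested against replicate error. K562 is known to lack the chromosome segment that holds CDKN2A, which limits it as a model of this pathway.

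CTCF is a zinc finger protein that binds a long GC-rich consensus, stops cohesin as it extrudes DNA and thereby sets the borders of chromatin loops, and many of its sites lie at gene starts. The genes described here sense DNA breaks and stalled forks (ATM and ATR), repair them by homologous recombination (BRCA1, PALB2 and BRCA2), or halt the cell cycle in response (p21, encoded by CDKN1A, and the retinoblastoma protein). G4 ligands such as PDS are known to slow replication forks and to be toxic to cells without BRCA1 or BRCA2.

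Sequences of the hg19 genome show what the peaks at these genes cover. Capitals mark a match to the CTCF consensus of 15 bases or a G4 motif, defined as 4 runs of at least 3 G separated by loops of 1 to 7 nt. The first stretch is the part of the ATM peak up to the first annotated base of the gene, chr11:108093601-108093770 on the plus strand, with a consensus match of 1 mismatch.
ATM start: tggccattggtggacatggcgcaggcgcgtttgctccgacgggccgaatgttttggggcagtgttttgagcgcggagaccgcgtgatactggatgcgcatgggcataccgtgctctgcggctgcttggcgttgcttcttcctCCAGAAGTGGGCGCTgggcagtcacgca
The peak in the CDKN1A intron is shown over chr6:36648192-36648422 on the minus strand, because it was the one peak inside a member gene that held a G4 motif. Its consensus match of 1 mismatch comes first and its G4 motif second.
CDKN1A intron: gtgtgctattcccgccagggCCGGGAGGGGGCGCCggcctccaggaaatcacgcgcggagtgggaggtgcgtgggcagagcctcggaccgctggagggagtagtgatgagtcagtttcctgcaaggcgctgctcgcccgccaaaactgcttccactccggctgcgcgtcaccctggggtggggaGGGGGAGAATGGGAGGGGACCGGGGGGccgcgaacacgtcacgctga
The peak between WRAP53 and DNAH2 held an exact consensus and overlapped 4 G4 motifs, the most of any, of which 2 are within the stretch chr17:7620501-7620785, written on the minus strand. From left to right the capitals are a G4 motif of the plus strand, which appears as runs of C, the exact consensus and a G4 motif of the minus strand.
Upstream of DNAH2: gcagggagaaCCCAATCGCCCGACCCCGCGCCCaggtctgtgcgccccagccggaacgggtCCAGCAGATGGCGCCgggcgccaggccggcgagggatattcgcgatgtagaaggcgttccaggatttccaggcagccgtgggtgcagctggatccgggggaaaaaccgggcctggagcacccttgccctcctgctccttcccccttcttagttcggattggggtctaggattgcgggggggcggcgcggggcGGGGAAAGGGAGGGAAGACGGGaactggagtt
A peak of the PDS list alone lay nearby with 1 G4 motif, at chr17:7614764-7614824 on the plus strand.
PDS-only peak: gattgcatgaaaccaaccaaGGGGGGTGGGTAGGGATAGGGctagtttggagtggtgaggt
The last pair shows consensus matches of 1 mismatch outside gene starts, at chr13:32989316-32989370 on the minus strand beyond BRCA2 and at chr3:142305817-142305871 on the plus strand beyond the start of ATR.
Beyond BRCA2: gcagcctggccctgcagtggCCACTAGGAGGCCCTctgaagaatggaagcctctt
Beyond ATR: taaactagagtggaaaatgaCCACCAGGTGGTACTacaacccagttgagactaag

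All 8 genes had at least 1 CTCF peak within 20 kb in each list, a condition met by 77.2% of all coding genes in the control and 73.7% in the PDS list. Among the 50% of each list with the lowest p-values BRCA2 had no peak in either list and ATR none in the PDS list. With windows set around the canonical transcripts, an alternative chosen after seeing the data, RB1 had no peak in either list and BRCA1 had 1 in each. BRCA1 and WRAP53 had 3 control peaks each, PALB2 and CDKN1A had 2, and BRCA2, ATM, ATR and RB1 had 1. In the PDS list WRAP53 and CDKN1A had 3 peaks each, BRCA1 and BRCA2 had 2, and PALB2, ATM, ATR and RB1 had 1. The median coding gene had 2 peaks in either list. Several of the 8 genes are long, and per length of their windows they held 1.20 peaks per 100 kb in both lists, whereas the windows of all coding genes held 2.08 in the control and 2.14 in the PDS list. In each list 4 of the 14 peaks overlapped the gene itself, 4 lay upstream and 6 downstream. The outermost peaks counted lay 19.6 kb from BRCA1 and 19.0 kb from CDKN1A, and the nearest ones not counted lay 37.05 kb from CDKN1A in the control and 37.04 kb in the PDS list. By fold enrichment over IgG those stood at percentiles 66.0 and 26.1 of their lists, respectively.

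**Figure D1:**
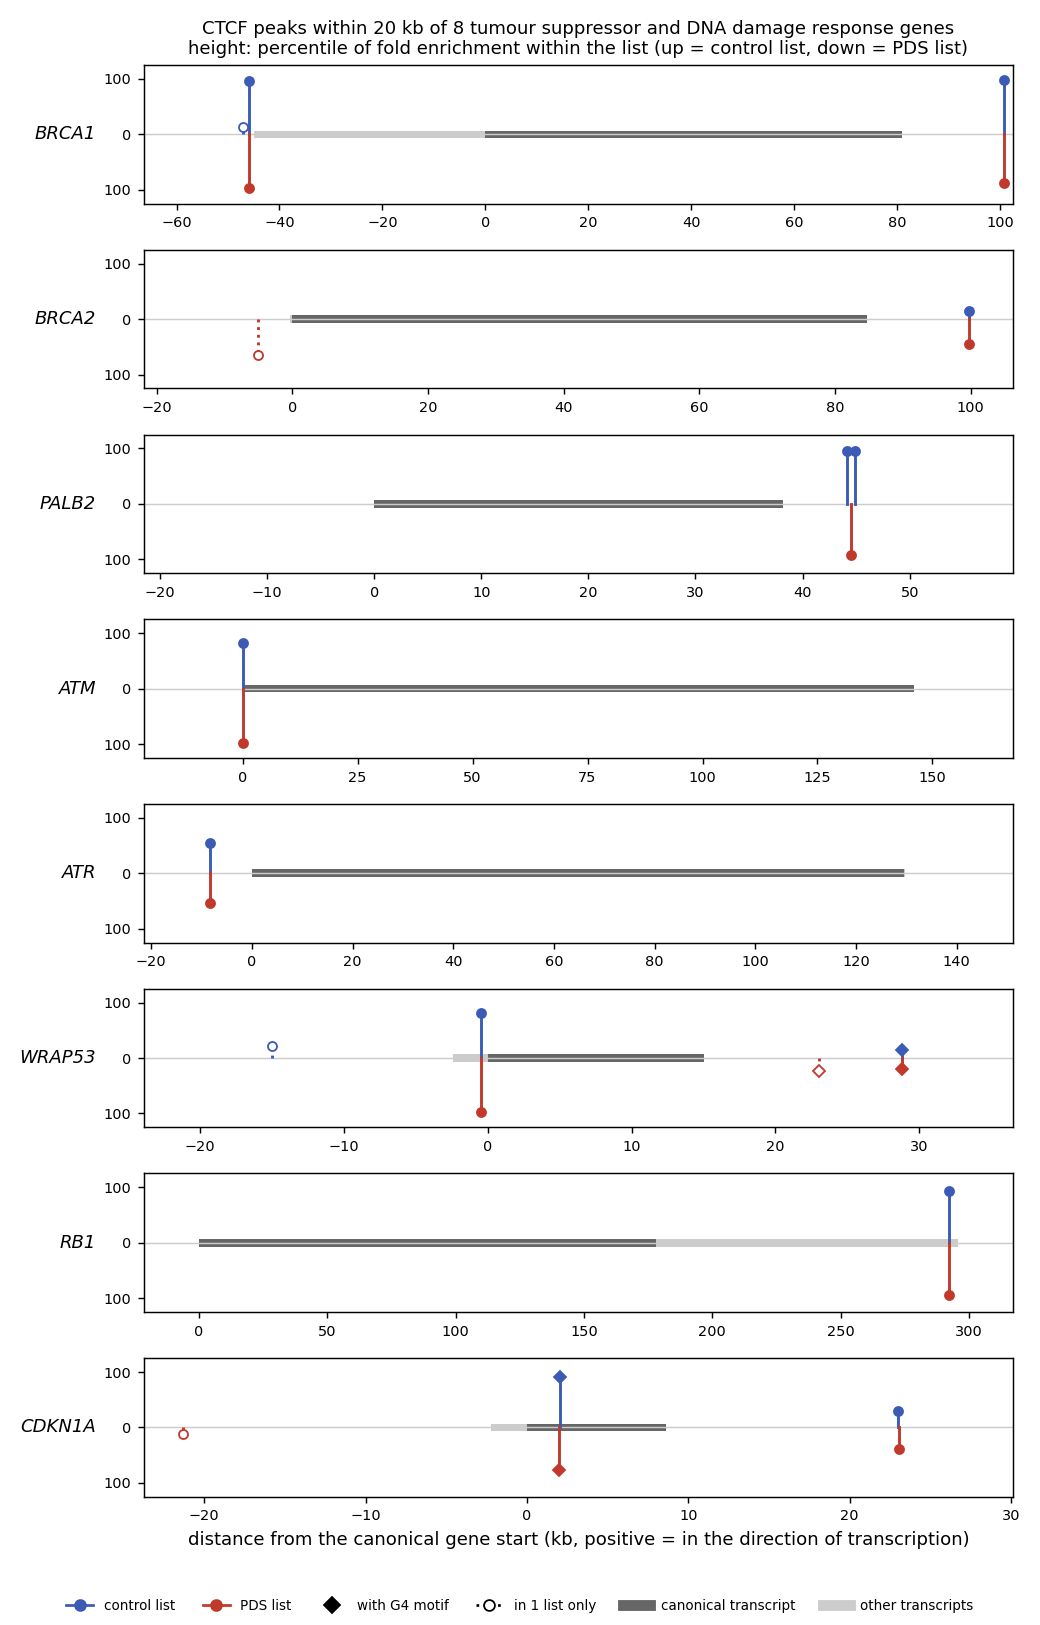
CTCF peaks at the 8 genes, plotted by their distance in kb from the start of the canonical transcript, positive in the direction of transcription. Stems point up for the control list and down for the PDS list, and their length is the percentile of the fold enrichment within the list. Filled symbols are peaks that overlap a peak of the other list, open symbols with dotted stems are peaks of 1 list, diamonds hold a G4 motif, and dark and light bars are the canonical and other transcripts. ATM and WRAP53 have a peak at their start, CDKN1A has one in its body, and the peak of RB1 lies 292 kb from the start.

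The 28 peaks formed 16 sites, of which 11 were occupied in both lists, 2 in the control list alone and 3 in the PDS list alone. Of the 14 control peaks at these genes, 12 overlapped a PDS peak by at least 1 bp (85.7%, Wilson 95% confidence interval 60.1 to 96.0%), against 78% of the whole control list. Of the 14 PDS peaks, 11 overlapped a control peak (78.6%, interval 52.4 to 92.4%), against 78.6% of the whole PDS list. The shares of the whole lists lay inside the respective intervals, which cover counting error only.

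The strength of a peak was given by its fold enrichment over IgG. Because each fold is relative to IgG of its own condition, and it is not known from the list whether the control folds rest on the 1 control IgG sample alone, peaks were placed by their percentile within a list, where 100 is the strongest, and folds were not set against each other between lists. The median percentile by fold of the 14 control peaks was 81.1, with a range of 13.6 to 98.0, and that of the 14 PDS peaks was 70.5, with a range of 11.2 to 98.0. With 14 peaks, intervals of at least 95% coverage around these medians, 15.2 to 94.98 and 22.8 to 96.2, contain the middle of the lists. These intervals treat the peaks as independent, although some lie at the same locus. Ordered by p-value instead, the medians were 66.1 and 61.8. Members were therefore found at both ends of the lists: 6 control and 5 PDS peaks were among the strongest 10% by fold, whereas the weakest stood at percentiles 13.6 and 11.2.

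The homologous recombination genes BRCA1, PALB2 and BRCA2 had no CTCF peak inside them in either list. BRCA1, whose product promotes break resection and ubiquitylates chromatin together with BARD1, is annotated at chr17:41196312-41322262 on the minus strand, and its canonical transcript starts at 41277381. The nearest peak to that start was 45.8 kb away in both lists, and 77.6% of coding genes had a nearer control peak. That peak covered the start of NBR1, the autophagy receptor gene that lies head to head with the outermost BRCA1 transcripts, at chr17:41323201-41323380 in the control and 41323201-41323400 in the PDS list. Its control fold was 73.0 (percentile 97.0), and its PDS fold was 37.04 (percentile 96.2). By p-value the same peak stood in the middle of both lists, at percentiles 52.9 and 60.1. It was 180 and 200 bp wide, below the median widths of 360 bp in the control and 300 bp in the PDS list.

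The strongest control peak by fold of all 14 lay downstream of BRCA1, at chr17:41176381-41176740 within VAT1 and 508 bp from the start of RND2. Its fold was 80.4, rank 664 of the control list and percentile 98.0, and 27.7 in the PDS list, rank 4082 and percentile 87.6. The order by p-value moved the other way, from percentile 84.1 to 94.1. No G4 motif lay in this peak but 6 lay within 1 kb of it. The remaining control peak, chr17:41324401-41324580 in an intron of NBR1, had no PDS partner, and the gap to the nearest PDS peak was 1000 bp. It was among the weaker control peaks, with a fold of 13.4 at percentile 13.6, and its GC content of 36.7% was the lowest of the 28 peaks.

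PALB2, the bridge that brings BRCA2 to BRCA1, lies at chr16:23614481-23652642 on the minus strand. Its peaks were downstream, at the start of NDUFAB1, the gene of the mitochondrial acyl carrier protein, 5.80 kb from PALB2 in the control and 5.78 kb in the PDS list. The control list had a pair of peaks there. The first, chr16:23607541-23607960, had a fold of 64.4 (percentile 94.98), ranked 123 by p-value in the whole control list (percentile 99.6), and covered the start of NDUFAB1 and a consensus with 1 mismatch. The second, chr16:23608201-23608680, had a fold of 63.0 (percentile 94.5) and stood at percentile 69.8 by p-value. The PDS list held 1 peak of 1100 bp across both, chr16:23607601-23608700, the widest of the 28, with a fold of 30.8 (percentile 91.8) and percentile 95.6 by p-value. The lower number of PALB2 peaks in the PDS list thus came from 1 peak that spanned the place of both control peaks. The start of PALB2 itself was 37.2 kb from the nearest peak in both lists, and a G4 motif lay within 1 kb of that start.

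BRCA2, a mediator of strand exchange in homologous recombination, lies at chr13:32889223-32974405 on the plus strand and was the gene with the largest change in the distance of its nearest peak. In the control list the nearest peak was 47.3 kb from the BRCA2 start, and 78.3% of coding genes had a nearer one. In the PDS list it was 4.85 kb away, and 33.7% of coding genes had a nearer one. The peak in question, chr13:32884451-32884800, lay in the coding sequence of ZAR1L, the divergent neighbour of BRCA2, and was absent from the control list, whose nearest peak was 42.1 kb off. Its fold was 19.7 (percentile 64.9), its percentile by p-value was 43.0, and it held no G4 motif inside or within 1 kb and no consensus with fewer than 3 mismatches. The other BRCA2 site lay 14.8 kb downstream in an intron of N4BP2L1. Its control peak, chr13:32989201-32989560, had a fold of 14.2 (percentile 15.2), and its PDS peak, chr13:32989351-32989500, a fold of 15.9 (percentile 44.5). This was the largest rise in percentile by fold among the shared sites, 29.3 points, but by p-value the same site fell by 25.2 points, from 48.1 to 22.9. The control peak contained the consensus printed above, and the PDS peak was 150 bp wide and began directly after that consensus.

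The apical kinases ATM and ATR each had 1 site, occupied in both lists. ATM, which is activated by double-strand breaks, was the one gene whose start lay inside a CTCF peak. The peak spanned chr11:108093601-108094020 in the control and 108093601-108093950 in the PDS list and also stood 236 bp from the start of NPAT, which runs the other way and encodes a coactivator of histone genes. Its fold was 42.2 (rank 6121, percentile 81.5) in the control and 42.1 (rank 665, percentile 98.0) in the PDS list, where it was the strongest peak by fold at these genes. By p-value its place hardly differed, with percentiles of 83.5 and 84.3. It had no G4 motif inside and 1 within 1 kb, and its GC content was 62.6% and 63.4%. Of all coding genes, 22.6% had a control peak and 21.3% a PDS peak within 1 kb of their start, and among the 8 genes ATM and WRAP53 met this in both lists.

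ATR, the kinase that answers to single-stranded DNA at stalled forks, had its peak upstream in sequence outside any gene, 8.15 kb from the gene in the control and 8.08 kb in the PDS list. The control peak, chr3:142305721-142306080, had a fold of 27.9 (percentile 54.1) and the PDS peak, chr3:142305651-142306000, a fold of 17.3 (percentile 53.2). Both were near the middle of their lists by fold. By p-value the site stood at percentile 62.3 in the control and 36.9 in the PDS list. Both peaks contained the same consensus with 1 mismatch.

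WRAP53 encodes a protein that guides telomerase RNA to Cajal bodies. The window of WRAP53 was the richest in G4 motifs, with 38 of the 126 motifs of all 8 windows in 57.4 kb, and held 5 of the 6 motifs that touched a CTCF peak. The peak at its start, chr17:7590961-7591680 in the control and 7590951-7591700 in the PDS list, lay 115 and 95 bp from the canonical WRAP53 start. Its fold was 41.5 (percentile 80.8) in the control and 39.4 (percentile 97.2) in the PDS list. By p-value it stood lower in the PDS list, at percentile 79.9 against 95.6. It had no G4 motif inside and no consensus with fewer than 2 mismatches.

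The other WRAP53 sites were weaker by fold, 1 in each list alone and 1 in both. The site of the control list alone had a fold of 17.1 (percentile 22.3) and contained an exact consensus. The site of the PDS list alone, chr17:7614751-7614850, was outside any gene and 100 bp wide, the minimum of that list. Its fold was 12.1 (percentile 22.8), its p-value of 8.58e-06 placed it at percentile 2.28, and it contained the G4 motif printed above. The site upstream of DNAH2, an axonemal dynein gene, had the same borders in both lists, chr17:7620301-7620900. Its folds were low, 13.6 (percentile 13.8) in the control and 11.3 (percentile 19.6) in the PDS list, yet by p-value it stood at percentiles 85.4 and 73.8. It overlapped 4 G4 motifs, 1 on the plus and 3 on the minus strand, of which 3 were wholly inside and 1 of the minus strand crossed the border. It also contained an exact consensus and had the highest GC content of the 28 peaks, 66%.

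CDKN1A, which encodes the cyclin-dependent kinase inhibitor p21, had the peak with the smallest p-value at these genes in the PDS list. It lay in an intron of the canonical transcript, at chr6:36648121-36648960 in the control and chr6:36648101-36648800 in the PDS list, 2.05 and 1.96 kb past the start by its centre. Its p-value was 1.71e-34 in the control list, rank 225, and 3.82e-46 in the PDS list, rank 184, which gave percentiles of 99.3 and 99.4. Its fold was 54.5 in the control and 22.8 in the PDS list. The percentile by fold was 91.1 and 76.2, a decrease by 14.9 points that was the largest among the sites with 1 peak in each list. It was the widest control peak at these genes, 840 bp, and 700 bp wide in the PDS list. The control peak held 3 consensus matches with at most 1 mismatch, including a pair that overlapped each other and so was not a pair of separate sites. The PDS peak held 1 of the matches, because it ended at 36648800, before the overlapping pair. One G4 motif on the minus strand was inside both peaks.

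A second CDKN1A site occupied in both lists lay 14.2 kb downstream in an intron of RAB44. Its fold was 20.0 (percentile 29.4) in the control and 14.9 (percentile 38.2) in the PDS list, and by p-value its percentile was 36.6 and 50.4. The PDS list had 1 more peak, 19.0 kb upstream of CDKN1A at chr6:36625101-36625200, which was 22.9 kb from the nearest control peak. It was the weakest of the PDS peaks by fold, 9.23 at percentile 11.2, and 100 bp wide.

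RB1, whose product holds E2F factors in check, is the longest of the 8 genes, at chr13:48877880-49173572, and had 1 site. The site lay inside RB1 only through transcripts longer than the canonical one, 292 kb from the start, at chr13:49169881-49170060 in the control and 49169901-49170100 in the PDS list. By fold it was strong in both, 60.6 (percentile 93.7) and 34.1 (percentile 94.6), and by p-value in the middle, at percentiles 51.4 and 63.5. The RB1 start was 70.1 kb from the nearest peak in both lists, and 84.8% of coding genes had a nearer control peak. Within 1 kb of that start lay 2 G4 motifs.

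**Figure D2:**
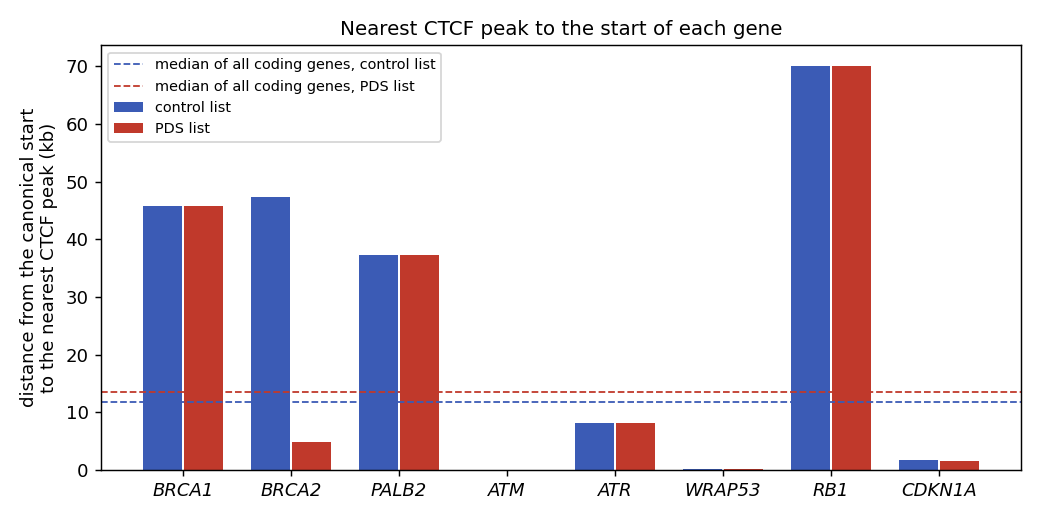
Distance in kb from the canonical start of each gene to the nearest CTCF peak, as bars for the control and PDS lists, with the medians of all coding genes as dashed lines at 11.9 kb and 13.5 kb. ATM has a distance of 0 in both lists, WRAP53 bars of about 0.1 kb are barely visible, and BRCA2 is the gene whose bars differ, 47.3 kb and 4.85 kb.

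Across all genes the median distance from the start to the nearest peak was 11.9 kb in the control list, with quartiles at 1.54 and 39.9 kb, and 13.5 kb in the PDS list, with quartiles at 1.83 and 47.6 kb. ATM, WRAP53, CDKN1A and ATR were below these medians in both lists, CDKN1A at 1.63 and 1.61 kb, whereas BRCA1, PALB2 and RB1 were above them. Of the 14 control peaks 7 lay within 1 kb of a canonical coding gene start (50.0%, interval 26.8 to 73.2%), 2 of them within 1 kb of the start of the member gene. Of the 14 PDS peaks 6 did (42.9%, interval 21.4 to 67.4%), and again 2 at the start of the member gene. In the whole lists the shares were 13.6% for control and 13.1% for PDS, but the peaks counted here had been taken from windows around genes, and those of the whole lists had not. The starts near the other peaks were those of RND2, NBR1, NDUFAB1 and DNAH2 in both lists.

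G4 motifs inside peaks were few. A motif overlapped 2 of the 14 control peaks (14.3%, interval 4.01 to 39.9%), against 16% of the whole control list, and in 3 of the 14 PDS peaks (21.4%, interval 7.57 to 47.6%), against 17.1% of the PDS list. Here too the shares of the whole lists lay inside the intervals. With 1 kb on either side, 9 of 14 peaks in each list had a motif (64.3%, interval 38.8 to 83.7%), against 43.8% and 46.8% of the whole lists. Peaks of a gene can lie near the same motif, so these are not independent. Of the 126 motifs in the windows, 31 were at BRCA1, 21 at RB1, 14 at CDKN1A, 8 at ATR, 7 at PALB2, 6 at ATM and 1 at BRCA2. A motif lay within 1 kb of the start of 5 of the 8 genes, namely PALB2, ATM, ATR, RB1 and CDKN1A, against 68.6% of all coding genes. Of these, ATM had a peak within 1 kb of its start, and the other start with a peak, that of WRAP53, had no motif within 1 kb.

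The CTCF consensus, searched on both strands, was exact in 2 of 14 control peaks (14.3%, interval 4.01 to 39.9%), against 17.3% of the control list, and in 1 of 14 PDS peaks (7.14%, interval 1.27 to 31.5%), against 14.4% of the PDS list. All of these were at WRAP53. With at most 1 mismatch it was in 7 of 14 control peaks (50.0%, interval 26.8 to 73.2%), against 54.3% of the control list, and in 5 of 14 PDS peaks (35.7%, interval 16.3 to 61.2%), against 46.2% of the PDS list. BRCA2, PALB2, ATM, ATR, WRAP53 and CDKN1A had such a match in the control list, and BRCA1 and RB1 had none with fewer than 2 mismatches. The strong peaks near RND2 and NBR1 and in RB1 were thus among those without a close match to these letters. Whether CTCF bound there by another sequence cannot be read from a search for 1 consensus.

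At the 10 sites with 1 peak in each list, the percentile by fold was higher in the PDS list at 6 and lower at 4, with shifts from -14.9 to 29.3 points. Over all 24633 such pairs of the lists, the middle 50% of shifts ran from -18.5 to 20.6 points, so 9 of these 10 sites were inside that range. By p-value 6 percentiles were also higher and 4 lower, and 5 of the 10 shifts were inside the middle 50% of all pairs, which ran from -8.08 to 12.7 points. The direction by p-value was opposite to that by fold at 6 of the 10 sites, as it was at 62.2% of all pairs. The site beyond BRCA2 and both shared WRAP53 sites rose by fold and fell by p-value, and both BRCA1 sites and the CDKN1A intron did the reverse. ATM, RB1 and the RAB44 site stood higher in the PDS list by both orders, and ATR lower by both. The shifts of RB1, 0.93 points by fold, and ATR, -0.89 points by fold, were small beside the median absolute shift of 19.7 points over all pairs. By p-value their shifts, 12.1 points for RB1 and -25.4 points for ATR, were above the median absolute shift of 10.8 points. Of these 10 sites 6 were narrower, 3 wider and 1 of equal width in the PDS list, in lists whose widths come in steps of 60 bp for control and 50 bp for PDS. The median width of all 14 peaks was 390 bp in the control and 350 bp in the PDS list, against 360 and 300 bp in the whole lists.

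**Figure D3:**
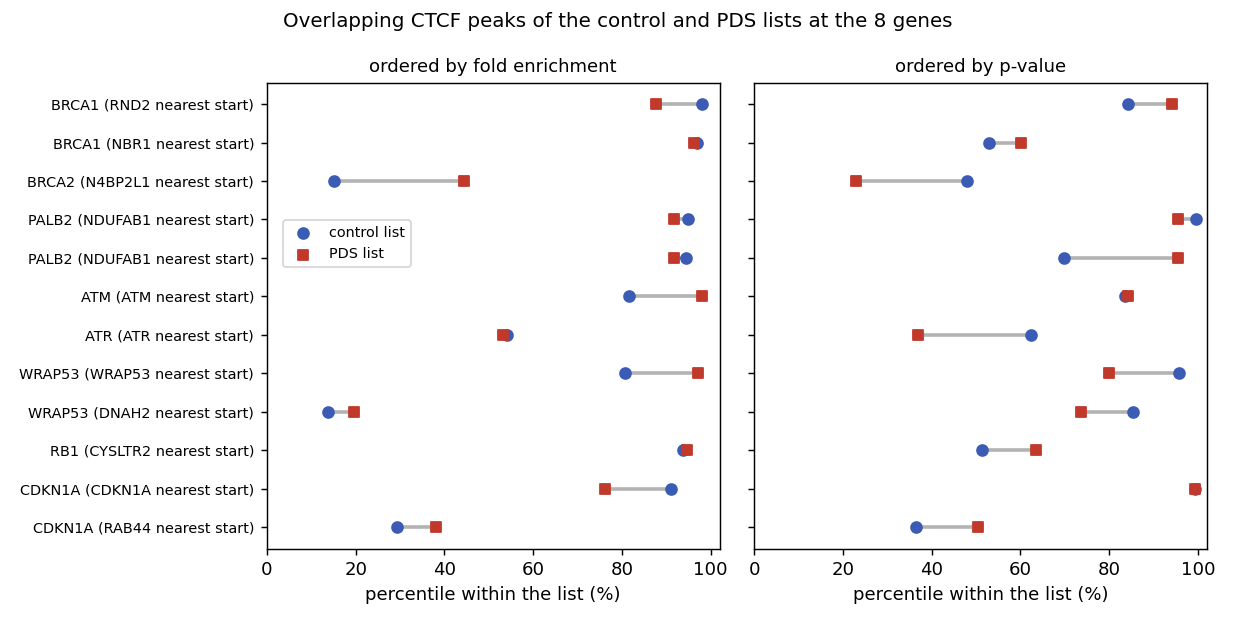
Percentile within the list of the overlapping peaks at the 8 genes, ordered by fold enrichment on the left and by p-value on the right, with control as circles and PDS as squares joined by a line. Rows are labelled by the member and the nearest canonical coding start, and the PDS peak at NDUFAB1 appears against both control peaks. The BRCA2 site moves from 15.2 to 44.5 by fold and from 48.1 to 22.9 by p-value.

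Further genes of the same pathways were counted in the same way, 45 in all and chosen with earlier results of these data known. Of these, 35 had a peak within 20 kb in the control and 35 in the PDS list, beside the 77.2% and 73.7% of all coding genes given above, and 12 in each list had one within 1 kb of their start, 10 of them in both, beside 22.6% and 21.3% of all coding genes. The 18 genes of homologous recombination and the Fanconi anaemia pathway held 37 control and 31 PDS peaks, the 13 checkpoint genes 34 and 36, and the 14 genes of cell cycle control 27 and 34. PDS peaks were more numerous than control peaks at 12 of the 45 genes, fewer at 8 and equal at 25. Of all 20136 coding genes, 22.3% had more, 20.8% fewer and 56.9% the same number. Per length of window the first list was the sparsest, with 1.14 control and 0.956 PDS peaks per 100 kb, and the checkpoint genes were the densest, with 3.13 and 3.32.

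FANCC, a subunit of the Fanconi core complex, had the most peaks of its list, 9 in control and 8 in PDS. BARD1, the partner of BRCA1, had none in either list, nor had XRCC2, a homologous recombination gene, FANCD2, which is ubiquitylated at crosslinks, or FANCM, a fork-remodelling translocase. Among the checkpoint genes RNF168, a ubiquitin ligase at breaks, had 6 peaks in each list, and CLSPN, the adaptor through which ATR activates CHK1, had 4 in control and 7 in PDS. MDC1, a scaffold that binds phosphorylated H2AX, was without a peak, and the nearest one was 2220818 bp from its start in the control and 2220808 bp in the PDS list. The authors had removed reads that did not map uniquely. Whether this left the region around MDC1 without usable reads was not tested, so the gap is not shown to be an absence of CTCF. E2F1 had the most peaks in the cell cycle list, 5 in control and 6 in PDS. CDKN2A, CCNE1 and TFDP1 had none, and the peak nearest to the start of CDKN2A, which K562 is known to have lost, was 2048556 bp away in the control and 2048506 bp in the PDS list. By comparison, 90% of coding genes had a control peak within 111542 bp of their start.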

How the data were processed

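CTCF ChIP-seq of K562 comprised 7 samples, as described above. Per the labels and methods, the authors aligned reads to hg19 with Bowtie2 2.2.3, filtered them, and ran PePr once for each condition. The deposited lists give, for each peak, the fold enrichment over IgG as a ratio and a p-value, both computed by the authors; their score and adjusted p columns were not used. Neither read counts nor depths are given in the sources used here.

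Genes came from GENCODE release 44 mapped to GRCh37, whose sequence was used for the hg19 positions. No peak passed the end of its chromosome, a check that cannot tell builds of similar length apart. In each list 24 peaks lay off the chromosomes. Members and pathway lists were chosen with earlier results of these data known. Every peak of the 8 genes was counted, and the position of 1 is not reported here. Of each pathway list, the gene with the most peaks and those with none were named. An overlap of at least 1 bp made a peak shared. G4 motifs and the consensus of the study's introduction were searched on both strands. Shares carry Wilson 95% intervals, and no test between conditions was made. Alternatives covered the window, overlap, merging, stringency, order and motifs. Searches and overlaps were tested on simulated data. The work used samtools 1.23.1 and, under Python 3.11.15, pyfaidx 0.9.0.4, matplotlib 3.10.9, scipy 1.17.1, pandas 2.3.3 and numpy 2.4.6. Other experiments of the study were not analysed here.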

Additional observations from a re-analysis of the deposited data

How the results depend on the processing

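Of 58 alternatives to the counts, shares and medians over all 8 genes, 40 kept their value within the limits set and 18 moved. The 14 peaks of each list became 4 and 4 when only peaks overlapping a gene counted, 6 and 6 within 5 kb, and 22 and 24 within 50 kb (control and PDS). Keeping the 50% of each list with the lowest p-values left 9 PDS peaks, with none at BRCA2 in either list and none at ATR in the PDS list. Of 96 alternatives to the counts of single genes, 40 moved. Peaks overlapping the gene itself were absent at BRCA1, BRCA2, PALB2 and ATR in both lists, and peaks within 5 kb at PALB2 and ATR in both lists and at BRCA2 in the control list. All 4 peaks overlapping a gene were shared, 100% in either list. Over all member peaks the share was 64.3% in either list when at least 50% of both peaks had to overlap. It was 71.4% in either list with peak centres within 100 bp. With a gap of at most 1 kb allowed it was 92.9% in the control and 78.6% in the PDS list. G4 motifs with runs of at least 2 G were in 11 control and 13 PDS peaks, against 77.0% and 82.7% of the whole lists. The 200 bp at the peak centre held a motif in 1 control and 2 PDS peaks, and 1 peak overlapping a gene held one in each list. The consensus was in 7 control and 5 PDS peaks with 1 mismatch allowed, against 54.3% and 46.2% of the whole lists. In the central 200 bp it was exact in 1 and 0 peaks. With at most 1 mismatch it was there in 4 peaks of each list (28.6%), against 43.2% of the control and 33.9% of the PDS list. For motifs and exact matches in the central 200 bp, and motifs in peaks overlapping a gene, no shares of the whole lists are given. Nor are they given for the alternatives to sharing. Median percentiles and widths stayed within their spread, which was too wide for percentiles to show that they were stable. Over the alternatives the control median percentile, 81.1 by fold, ran from 66.1 ordered by p-value to 92.4 in the 50% with the lowest p-values. The PDS median, 70.5 by fold, ran from 61.8 ordered by p-value to 95.9 for peaks overlapping a gene. With canonical transcripts only, chosen after seeing the data, each list had 11 peaks, BRCA1 had 1 in each list, RB1 none and CDKN1A 2 in the PDS list.

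No paired analysis was possible because the peak lists used here were called on the replicates of a condition together. They hold no value for a single replicate, so none was left out in turn, and other data of the replicates were not analysed here. The depth is unknown, so a peak of 1 list is not shown to be absent from the other condition.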
